A study of Mus musculus with 2 samples.

Results

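The genes described here encode the matrix metalloproteinases (MMPs), the secreted ADAMTS proteases and the tissue inhibitors of metalloproteinases (TIMPs). They were picked out by symbol, as Mmp or Adamts followed by a number, with 1 letter allowed after an Mmp number, or Timp followed by a digit. This gave 45 of the 32285 genes in the files, of which 22 are Mmp, 19 Adamts and 4 Timp genes, and all 45 are protein-coding in the annotation. The family, and the gene lists set beside it below, were chosen with earlier results of these data known. MMPs are zinc proteases that are mostly made as inactive precursors and that cut collagens, basement membrane and cell surface proteins. ADAMTS proteases trim procollagens and cut the lecticans, the chondroitin sulphate proteoglycans that surround neurons and fill glial scar, and TIMPs bind the active site of these enzymes and block it. In the injured spinal cord the family is known for opening the barrier between blood and cord, for letting immune cells through the matrix and for remodelling the scar.

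RNA of single nuclei was measured in spinal cord of wild-type C57BL/6 mice aged 6 to 8 weeks. All mice had a contusion at T10, a thoracic level, made by a 5 g rod of 1 mm diameter falling from 6 cm, and antibiotics before surgery and daily for 5 days after it. The PBS group received 100 µL of phosphate-buffered saline into a tail vein each day for 5 days, and the AEVs group received the same volume with 100 µg of protein of athlete-derived extracellular vesicles, membrane particles shed by cells. Cords were frozen on day 7, and nuclei of 3 mice make up the 1 library of each group, so single mice cannot be told apart, and what separates the libraries could be neither tested nor checked against replicates. No uninjured cord was analysed here.

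The PBS library kept 14023 nuclei with 73085370 unique molecular identifiers (UMIs, counts of single RNA molecules) and the AEVs library 15549 nuclei with 68103073 UMIs, at medians of 2600 and 2400 UMIs per nucleus. The libraries have 177 barcodes in common, 146 of them among the kept nuclei. Nuclei were clustered without the member genes, and each class carries the ending -like or the names of its leading genes. In each class named from a marker list, all markers of that list (10 per list, 8 for the Gpnmb-led myeloid class) were at least 2-fold over the other nuclei. The same markers had given the names, so this is not a separate check of them. The Klk6 and Enpp6-led and Neurofilament-led classes have no marker list of their own. Levels are UMIs of a gene per 1000000 UMIs of the class and library (CPM), paired values give PBS first, log2 ratios are AEVs over PBS, and ranges in parentheses are exact 95% intervals for counting error only. "Past the fold" means a ratio of at least 1.5 or at most its inverse in a gene whose UMIs of both libraries add up to 100 or more. In sums over all nuclei, fewer cells of a type and less RNA per cell cannot be told apart.

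The members that differed most between the libraries are Mmp3 (stromelysin-1, which cuts proteoglycans and laminin and activates other MMPs) and Mmp13 (collagenase-3, which cuts fibrillar collagen). On mm10, Mmp3 (ENSMUSG00000043613) lies on chromosome 9 from 7445822 to 7455975 and Mmp13 (ENSMUSG00000050578) on chromosome 9 from 7272514 to 7283331, both on the plus strand, in a run of 9 Mmp genes that also holds Mmp12. AP-1, the dimer of Fos and Jun proteins, is a textbook regulator of this gene cluster. The 250 bases before the start of both genes are shown to let a reader see its site, beside those of Timp3, the inhibitor that was higher in the same nuclei. Capitals mark the AP-1 motif, searched as TGAGTCA and TGACTCA, which are each other's reverse complement, so that both strands are covered. The sequences come from RefSeq on GRCm38.p6, 5′ to 3′, at chr9:7445572-7445821, chr9:7272264-7272513 and chr10:86300162-86300411, all on the plus strand.
Mmp3: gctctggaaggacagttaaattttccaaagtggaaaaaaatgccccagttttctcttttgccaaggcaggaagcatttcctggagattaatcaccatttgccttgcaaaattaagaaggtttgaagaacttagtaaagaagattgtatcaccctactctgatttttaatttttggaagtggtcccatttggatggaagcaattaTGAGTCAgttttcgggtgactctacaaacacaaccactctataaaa
Mmp13: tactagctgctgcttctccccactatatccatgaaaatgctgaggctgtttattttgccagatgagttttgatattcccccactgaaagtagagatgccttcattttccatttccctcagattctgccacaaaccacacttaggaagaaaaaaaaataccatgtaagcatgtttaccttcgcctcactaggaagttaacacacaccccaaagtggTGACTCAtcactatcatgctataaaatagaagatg
Timp3: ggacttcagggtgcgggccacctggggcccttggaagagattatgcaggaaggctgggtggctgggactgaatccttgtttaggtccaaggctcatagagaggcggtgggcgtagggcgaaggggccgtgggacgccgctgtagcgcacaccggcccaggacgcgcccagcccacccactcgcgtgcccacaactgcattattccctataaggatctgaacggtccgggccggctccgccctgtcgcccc
The motif begins 46 bases before the start of Mmp3 and 35 bases before that of Mmp13, and these letters are not in the Timp3 window. It occurs in 4.46% of 32851 mouse promoters of the same length and in 6 of the 31 member genes that the promoter table holds. Those 6 are Mmp3, Mmp13, Mmp12 (at 1 of its listed starts) and Mmp10, Mmp1b and Mmp7, named here for the motif, since they had too few UMIs to compare. All 6 lie in the cluster on chromosome 9. A TATAAA box, searched on both strands, is in 12.4% of promoters and in 8 member genes, Mmp3 and Mmp13 among them. These matches are a description of letters, not of binding.

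Of the 45 members, 34 had at least 100 UMIs over all nuclei, the lowest with 143, and 11 had fewer, the highest with 95. Fibroblast-like nuclei were the class with the highest level for 14 of the 34, among classes with at least 20 UMIs of the gene. Neuron-like nuclei were highest for 5 (Adamts3, Adamts17, Adamts18, Adamts19 and Mmp24), astrocyte-like nuclei for 3 (Adamts9, Timp1 and Timp4) and Schwann-like nuclei for 3 (Adamts5, Mmp15 and Mmp17). Ependymal-like nuclei were highest for Adamts16 and Adamts20, oligodendrocyte precursor-like nuclei for Adamts6 and Mmp16, and Gpnmb-led myeloid nuclei, phagocytes named by a glycoprotein of lipid-laden cells, for Mmp12 and Timp2. The remaining members were Mmp28, highest in endothelial-like nuclei, Adamts4 in the Klk6 and Enpp6-led class and Mmp9 in the Neurofilament-led class. When the member genes were let into the clustering, the class that held most of a gene's UMIs was the same for 34 of 34. That class need not be the one with the highest level, which was not followed in this way.

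**Figure D1:**
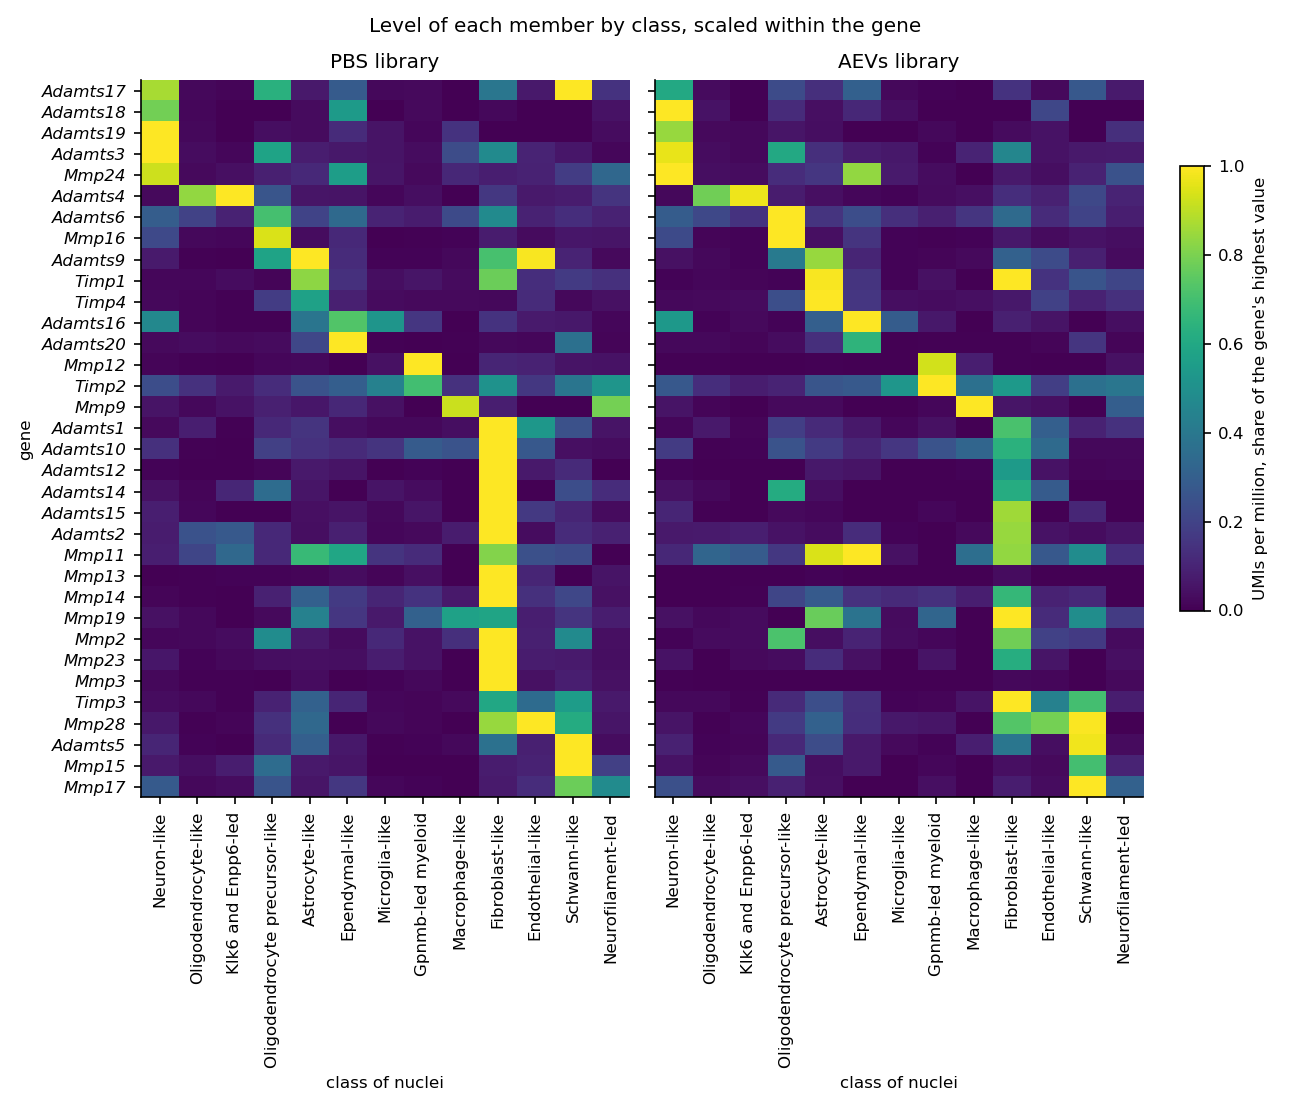
Level of each of the 34 members (rows) in 13 classes of nuclei (columns), PBS library left and AEVs library right, as CPM divided by the gene's highest value over both panels, so that colours compare classes and libraries within a gene and not genes with each other. Members whose highest class is fibroblast-like form the long bright block, in which Mmp3 and Mmp13 are bright in the PBS panel and dark in the AEVs panel. Some squares rest on under 20 UMIs.

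Over all nuclei, 9 of the 34 members were past the fold on the lower side in the AEVs library and 1 on the higher side. The same minimum left 17478 genes, of which 3.94% were past the fold lower and 8.88% higher, so the members' count on the lower side stands above that background and the count on the higher side below it. The median log2 ratio was -0.23 over the members and 0.09 over all genes, and 25 of the 34 had a ratio under 1. By group the medians were -0.52 for 14 MMPs, -0.23 for 16 ADAMTS genes and 0.09 for 4 TIMPs. Mmp13 was lowest at -3.93 (-5.09 to -2.96), on 147 PBS and 9 AEVs UMIs, and Mmp3 followed at -3.43 (-4.10 to -2.83), with 278 and 24 UMIs. Adamts12, a protease of cartilage oligomeric matrix protein, stood at -1.15 (-1.29 to -1.02), and the procollagen processing enzyme Adamts2 at -0.80 (-0.91 to -0.69). Mmp12 (-0.76), Mmp15 (-0.64), Mmp14 (-0.63), Mmp2 (-0.60) and Adamts1 (-0.59) complete the lower side, and Timp4 was the member on the higher side at 0.71 (0.64 to 0.79). When both libraries were given the same mix of clusters, 3 members stayed past the fold lower, Mmp13 at -3.42, Mmp3 at -3.24 and Adamts12 at -0.65, and Timp4 stayed higher at 0.63. The share of all genes past the fold was not computed for this mix. Whether the members' count still stands above the background there is therefore not known.

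**Figure D2:**
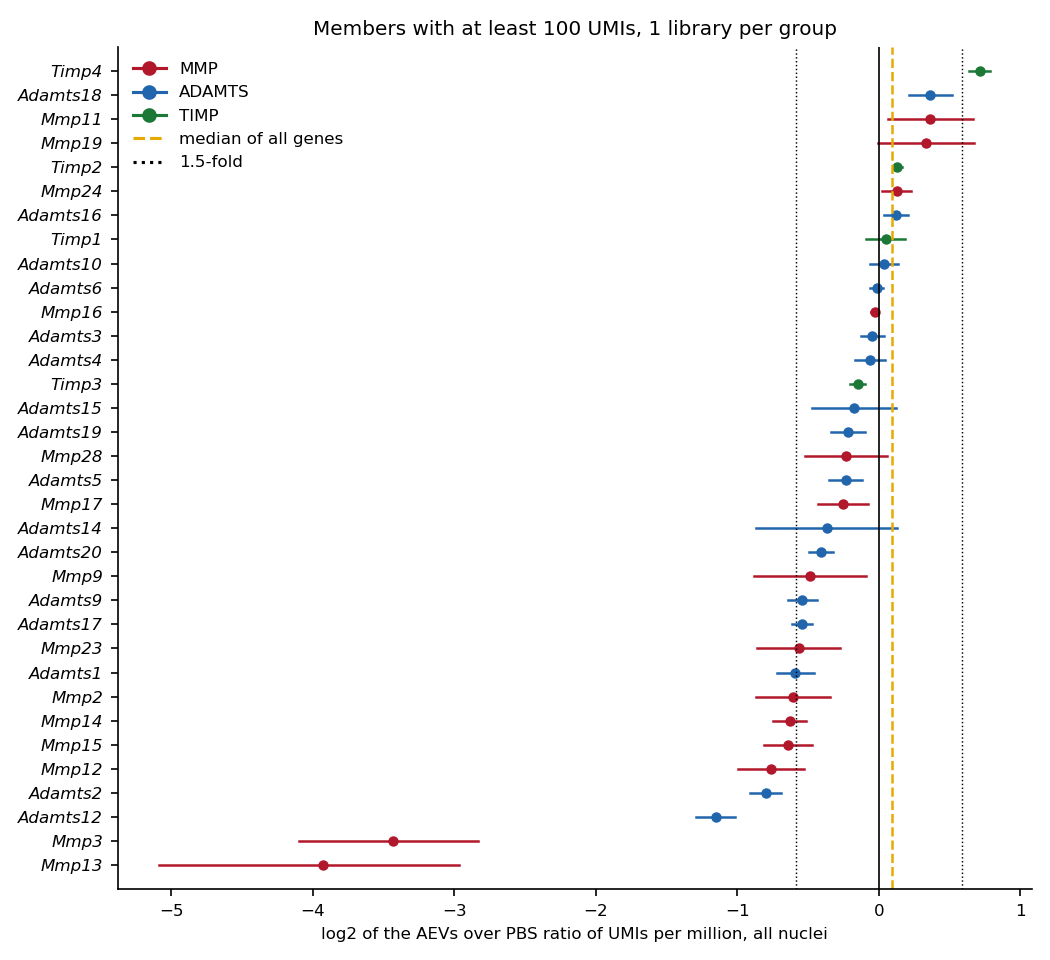
log2 of the AEVs over PBS ratio of CPM over all nuclei (x axis) for the 34 members with at least 100 UMIs (y axis), points coloured by group, bars showing 95% intervals for counting error. Dotted lines mark a 1.5-fold difference and the dashed line the median of all genes at 0.09. Mmp13 and Mmp3 lie apart from all others on the lower side, and Timp4 is the member right of the upper dotted line.

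Fibroblast-like nuclei, which include the cells of the fibrotic scar and of the meninges, had lower levels of 8 of 18 members past the minimum and a higher level of 1. Over the 6932 genes compared in this class, 6.92% were past the fold lower and 7.7% higher, and the medians of the log2 ratio were -0.48 for the members and 0.05 for all genes. The class held 957 PBS and 546 AEVs nuclei, 6.82% and 3.51% of the kept nuclei, at median depths of 2144 and 1715 UMIs. Of the 18, all but Mmp16 had at least 0.25 of the level of their highest class, the condition set against free RNA for naming a gene in a class.

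From 177 and 2 UMIs, Mmp3 stood at 72.6 CPM (62.3 to 84.1) in PBS fibroblast-like nuclei and at 1.63 CPM (0.197 to 5.88) in those of the AEVs library. The log2 ratio was -5.48 (-8.54 to -3.60). Its UMIs lay in 65 of 957 PBS nuclei (6.79%) and in 1 of 546 AEVs nuclei (0.18%), with at most 33 UMIs in any single nucleus. Thinned to 1000 UMIs per nucleus, the shares were 3.89% of 720 PBS nuclei and 0 of 406 AEVs nuclei, which allows a share of nuclei with a UMI at this depth of up to 0.739%. In ependymal-like nuclei, the class with the lowest level, 0 of 113 and 0 of 117 nuclei had a UMI, which allows a share of nuclei with a UMI of up to 2.65% and 2.56%, at median depths of 3736 and 3488 UMIs.

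Mmp13 measured 49.2 CPM (40.8 to 58.9) and 1.63 CPM (0.197 to 5.88) in the same nuclei, from 120 and 2 UMIs, for a log2 ratio of -4.92 (-7.98 to -3.03). UMIs were found in 38 PBS and 2 AEVs nuclei. In the PBS library 15 nuclei held both Mmp3 and Mmp13, of 65 with Mmp3 and 38 with Mmp13. Fibroblast-like nuclei held 81.6% of all Mmp13 UMIs in the PBS library and 22.2% in the AEVs library. For Mmp3 they held 63.7% and 8.33%, and neuron-like nuclei held another 71 and 17 UMIs at 1.56 and 0.396 CPM, under the level of the fibroblast-like class in the PBS library.

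The other MMPs of the class had smaller differences. Mmp14, the membrane-bound enzyme that activates pro-MMP2 and cuts collagen at the cell surface, measured 287.5 CPM (266.6 to 309.6) and 191 CPM (168 to 217), a log2 ratio of -0.59 (-0.81 to -0.37) that was short of the fold at -0.53 after thinning and at -0.57 when all variable genes entered the clustering. Mmp23, a membrane-anchored MMP, stood at 43.1 and 26.9 CPM, a log2 ratio of -0.68 (-1.29 to -0.10) that became -0.05 as a mean over nuclei. Mmp2, the gelatinase that MMP14 activates, measured 58.2 CPM (49.1 to 68.6) and 45.6 CPM (34.4 to 59.2), with intervals that overlap.

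Among ADAMTS genes, Adamts12 measured 434 CPM (408 to 461) and 237 CPM (210.4 to 265.7), a log2 ratio of -0.87 (-1.07 to -0.69). Adamts9, a lectican-cutting protease, measured 131 CPM (117 to 146) and 57.8 CPM (45.1 to 72.9), a log2 ratio of -1.18 (-1.58 to -0.81). Adamts17, linked to fibrillin microfibrils, stood at 37.7 and 13.8 CPM (-1.45, -2.29 to -0.69), and Adamts10, linked to the same fibres, at 151 and 96.8 CPM (-0.64, -0.95 to -0.34), or -0.57 and short of the fold with doublet calls kept. The first of each pair lies outside the interval of the second in these 4 genes. Adamts1 (-0.49), Adamts6 (-0.47) and Adamts2 (-0.24) were lower without passing the fold, while Adamts15 had a log2 ratio of -0.22 (-0.87 to 0.40) and Adamts5 of 0.07 (-0.33 to 0.46).

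Of the inhibitors, Timp3, the TIMP that stays bound to the matrix, measured 711 CPM (678 to 745) and 1188 CPM (1128 to 1251), a log2 ratio of 0.74 (0.64 to 0.84), and had a UMI in 53.5% and 66.5% of nuclei. Thinned, those shares were 39.9% and 54.7%. Timp1, the inducible secreted TIMP, measured 98.9 and 128 CPM (0.37, 0.07 to 0.67), a direction that turned to -0.22 after thinning, and Timp2 measured 399 and 422 CPM (0.08, -0.07 to 0.24). Summed over genes, MMPs measured 737 and 458 CPM, ADAMTS genes 1534 and 1016 CPM, and TIMPs 1220.3 and 1777 CPM.

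**Figure D3:**
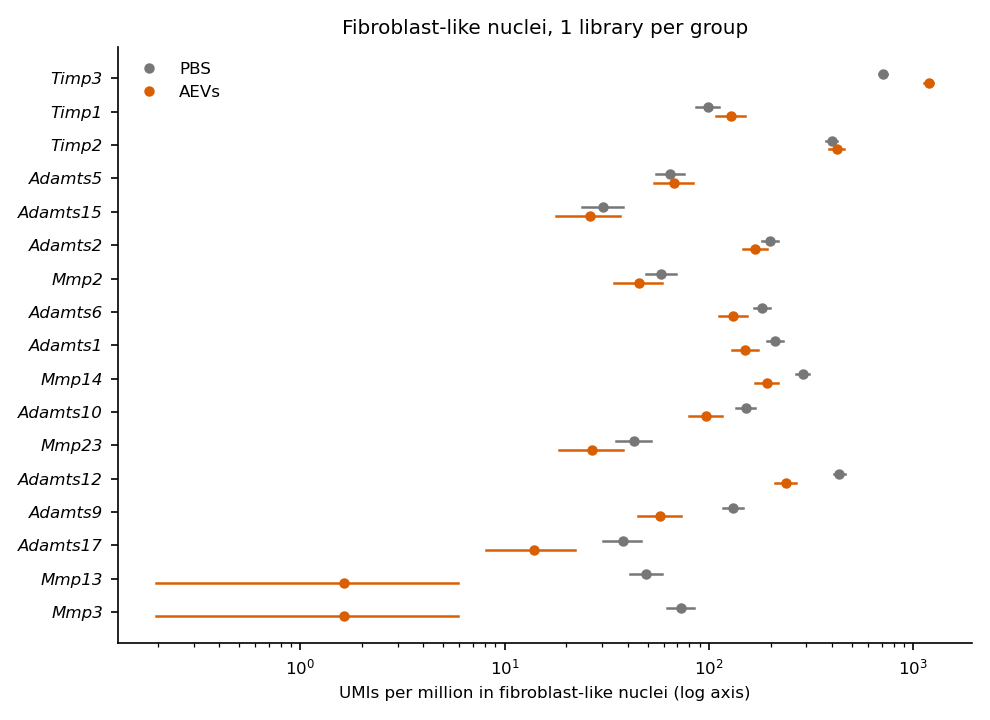
CPM in fibroblast-like nuclei (log axis) for the 17 members that meet the naming condition, PBS in grey and AEVs in orange, with 95% intervals for counting error. Mmp3 and Mmp13 are at 1.63 in the AEVs library against 72.6 and 49.2 in the PBS library, and Timp3 is higher at 1188 against 711.

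A separate clustering at a finer resolution gave 4 fibroblast-like clusters, which together hold somewhat more nuclei than the class and are not a division of it. The genes given for them were chosen after their values were seen. The Col1a1-led cluster (450 PBS and 191 AEVs nuclei) and the Slc47a1-led cluster (292 and 104 nuclei) held nearly all Mmp3 and Mmp13 UMIs. The Col1a1-led cluster was shallow, at a median of 954 UMIs per nucleus against 3268 in the Slc47a1-led cluster. All 10 oligodendrocyte markers were raised in it beside the 10 fibroblast markers. The part of this depth and of such other RNA in its values was not tested. Mmp3 had 89 and 2 UMIs in the Col1a1-led cluster, a log2 ratio of -4.30 (-7.37 to -2.41). In the Slc47a1-led cluster it had 82 and 0, at least 9.42-fold lower against 3 counts in the AEVs library. Mmp13 had 79 and 1 UMIs (-5.13, -10.45 to -2.61) and 40 and 1 UMIs (-3.78, -9.12 to -1.22) in the same clusters. Both genes were lower in both clusters.

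Adamts12 and Timp3 differed among the 4 clusters. Adamts12 led a cluster of 88 PBS and 71 AEVs nuclei, where it measured 2189 and 902 CPM (-1.28, -1.55 to -1.01). It was also lower in the Ranbp3l-led cluster (206 and 244 nuclei) at 586 and 196 CPM and in the Slc47a1-led cluster at 167 and 81.2 CPM, and measured 41.6 and 48.4 CPM in the Col1a1-led cluster. Timp3 measured 563 and 1627 CPM in the Adamts12-led cluster, a log2 ratio of 1.53 (1.22 to 1.84), against 0.47 (0.17 to 0.77) in the Col1a1-led, 0.24 (0.11 to 0.38) in the Ranbp3l-led and -0.19 (-0.46 to 0.07) in the Slc47a1-led cluster. Adamts9 had 61 and 2 UMIs in the Adamts12-led cluster (-4.41). Mmp14 was past the fold lower in the Col1a1-led cluster at -1.31 (-1.96 to -0.71) and short of the fold in the Slc47a1-led at -0.48 (-0.83 to -0.14) and the Ranbp3l-led cluster at -0.33 (-0.73 to 0.06). In the Adamts12-led cluster it had 67 and 28 UMIs, under the minimum.

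**Figure D4:**
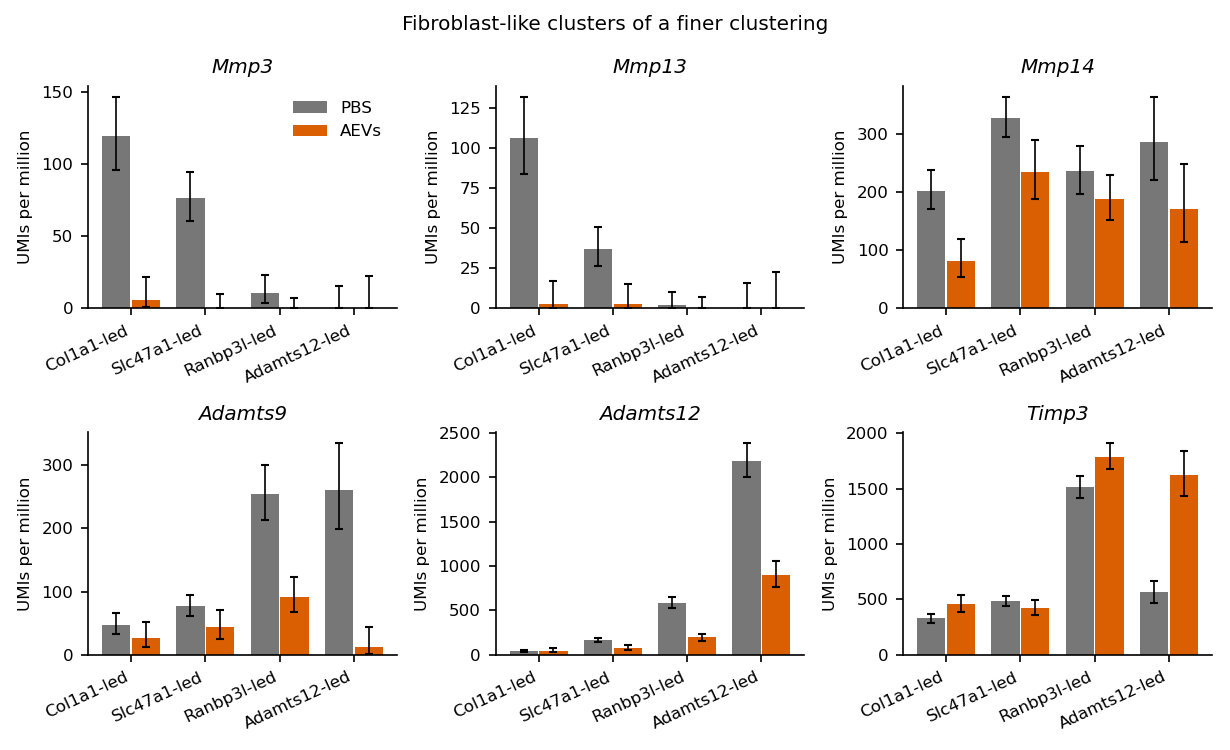
CPM of 6 members (panels) in the 4 fibroblast-like clusters of the finer clustering, PBS in grey and AEVs in orange, with 95% intervals for counting error. Mmp3 and Mmp13 bars are tall in the Col1a1-led and Slc47a1-led clusters of the PBS library and near 0 in the AEVs library, and the Timp3 bars differ most in the Adamts12-led cluster, at 563 and 1627.

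Other genes moved in the same nuclei. Of the 10 fibroblast markers 5 were higher, and their summed level was 11128 and 9432 CPM. None of 10 T or NK cell markers and none of 10 oligodendrocyte markers was higher, and they summed to 105 and 38.2 CPM and to 3152 and 2216 CPM. Of 10 mural markers 6 were higher, at 547 and 918 CPM, and of 10 endothelial markers 6, at 308 and 417 CPM. The part of these other cells, of the lower depth and of the changed mix of clusters in the results of this class was not tested, apart from the thinned values and the cluster values given above.

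Outside fibroblast-like nuclei, MMPs past the fold were 2 of 10 lower in neuron-like nuclei, 1 of 1 lower in oligodendrocyte-like nuclei and in the Neurofilament-led class, 1 of 4 higher in oligodendrocyte precursor-like nuclei and 1 of 3 higher in astrocyte-like nuclei. Only the last, Mmp19, met the naming condition. Of all genes, 4.76% were past the fold lower in neuron-like, 4.42% in oligodendrocyte-like and 11.8% in Neurofilament-led nuclei. In precursor-like nuclei 6.66% were higher, and in astrocyte-like nuclei 5.55%. With so few MMPs compared, these counts cannot be set apart from such shares. Summed MMP UMIs measured 223 and 133 CPM in the Neurofilament-led class (-0.75, -1.14 to -0.38) and 472 and 470.0 CPM in neuron-like nuclei (-0.01, -0.03 to 0.02). Mmp16, a membrane-type MMP, was highest in oligodendrocyte precursor-like nuclei at 1717 CPM (1659 to 1776) and 1822 CPM (1751 to 1895), a log2 ratio of 0.09 (0.01 to 0.16). In neuron-like nuclei Mmp24, another membrane-type MMP, measured 32.2 and 34.8 CPM, and Mmp17 measured 11.3 and 9.67 CPM. Mmp15 in precursor-like nuclei was at 50.1 CPM (40.6 to 61.1) and 40.3 CPM (30.4 to 52.5), with overlapping intervals, although over all nuclei it stood at 10.5 and 6.73 CPM. Mmp2 in precursor-like nuclei measured 28.4 and 41.8 CPM (0.56, -0.0016 to 1.12), while its level over all nuclei was lower. Mmp9, the other gelatinase and a neutrophil and macrophage product in injured tissue, had only 138 and 92 UMIs over all nuclei, at 1.89 and 1.35 CPM (-0.48, -0.88 to -0.09). Mmp11 (0.36), Mmp19 (0.33), Mmp28 (-0.23) and Mmp23 (-0.56) did not pass the fold over all nuclei.

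Mmp12, the macrophage elastase, was a product of Gpnmb-led myeloid nuclei, which held 64.8% and 84.2% of its UMIs. There it measured 119.9 CPM (106.3 to 134.7) and 112 CPM (96.8 to 128), a log2 ratio of -0.10 (-0.37 to 0.16). Its UMIs came from 56 of 1149 and 46 of 997 nuclei, and a single PBS nucleus held 115 of the 284 PBS UMIs. Without the nucleus with the most UMIs in each library, the log2 ratio turned to 0.41 in this class, and over all nuclei it was -0.52 and not past the fold. The Gpnmb-led clusters of the finer clustering gave 0.29 (-0.12 to 0.71) and 0.04 (-0.33 to 0.39). Of 5 members compared in the class, 0 were past the fold higher and 0 lower, against 8.38% and 6.39% of genes. Mmp27, a member under the minimum and named after its values were seen, had 34 PBS and 5 AEVs UMIs in this class, of 43 and 8 in all.

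Neuron-like nuclei held most of the UMIs of Adamts3 (93.0% and 93.9%), Adamts17 (91.4% and 93.7%), Adamts18 (97.7% and 97.4%) and Adamts19 (98.3% and 97.9%). Over all genes they held 45581276 of 73085370 PBS UMIs and 42937454 of 68103073 AEVs UMIs. Holding most UMIs of a gene therefore does not by itself set that gene apart. Of 29 members compared in neuron-like nuclei none were higher and 4 lower, against 8.97% and 4.76% of all genes there, and none of the 4 met the naming condition. Adamts17 measured 83.0 and 57.9 CPM in neuron-like nuclei (-0.52, -0.60 to -0.45) and Adamts18 13.95 and 17.7 CPM (0.35, 0.19 to 0.50), both short of the fold. Adamts3, which trims procollagen and also cuts reelin, measured 49.8 and 48.2 CPM. Median depth in this class was 10245 and 7615 UMIs.

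In oligodendrocyte-like nuclei 1 of 9 members was past the fold higher and 2 lower, against 12.4% and 4.42% of genes there, and in the Klk6 and Enpp6-led class 1 of 5 was higher and 1 lower, against 10.2% and 5.59%. None of these met the naming condition. Adamts4, an aggrecanase, measured 103 CPM (96.9 to 110) and 96.7 CPM (90.9 to 103) in oligodendrocyte-like nuclei and 123 and 120.2 CPM in the Klk6 and Enpp6-led class of that lineage. In oligodendrocyte precursor-like nuclei 2 of 12 members, neither meeting the naming condition, were past the fold higher and 1 lower, against 6.66% and 6.97% of genes there. The lower one was Adamts17, at 60.9 CPM (50.4 to 72.9) and 22.0 CPM (14.8 to 31.4), from 118 and 30 UMIs. Adamts6 measured 267 and 379 CPM (0.51, 0.33 to 0.69) and Adamts9 107 and 75.5 CPM (-0.51, -0.86 to -0.16).

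Some ADAMTS genes of vessel, lining and nerve sheath cells were lower in the AEVs library. In endothelial-like nuclei Adamts9 measured 184 CPM (151 to 221) and 42.6 CPM (29.5 to 59.5), a log2 ratio of -2.11 (-2.71 to -1.54), from 110 and 34 UMIs. Adamts1, an angiogenesis-regulating aggrecanase, measured 111.9 CPM (86.7 to 142) and 63.9 CPM (47.6 to 84.0) in the same class (-0.81, -1.36 to -0.26), or -0.51 with the stricter nucleus filter. These were 2 of 5 members compared, with 1 higher, against 5.54% lower and 5.57% higher among all genes of the class. In ependymal-like nuclei 1 of 5 members was lower and 0 higher (8.97% and 6.99% of genes), and in Schwann-like nuclei 1 of 4 was lower and 0 higher (10.7% and 8.95%). Adamts20, a versican-cutting protease, was the member in both classes. It measured 833 CPM (763 to 909) and 541 CPM (479 to 608) in ependymal-like nuclei (-0.62) and 309 and 129 CPM in Schwann-like nuclei (-1.25, -1.83 to -0.71). In microglia-like nuclei 1 of 3 members was lower and 0 higher (4.45% and 8.9% of genes), and the lower one was Adamts16 at 48.8 and 27.1 CPM (-0.84, -1.43 to -0.28). With so few members compared in each of these classes, the counts cannot be set apart from such shares. Markers of other cells moved in these classes too. Fibroblast markers summed to 947 and 431 CPM in endothelial-like nuclei (3 of 10 higher), 2219 and 1177 CPM in Schwann-like nuclei (6 of 10), 496 and 626 CPM in ependymal-like nuclei (4 of 10, 9 detected) and 118 and 42.9 CPM in microglia-like nuclei (3 of 10). Erythroid markers summed to 2015 and 755 CPM in endothelial-like nuclei (0 of 6 higher). The part of these cells in the ADAMTS values was not tested.

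Astrocyte-like nuclei, the scar-forming glia, had 2 of 15 members past the fold higher and 1, which did not meet the naming condition, lower, against 5.55% and 3.53% of genes there. Timp4, the TIMP of brain and heart, measured 332 CPM (314 to 351) and 579 CPM (556 to 602), a log2 ratio of 0.80 (0.70 to 0.90), and had a UMI in 56.8% and 62.8% of nuclei, or 24.7% and 39.4% when thinned. The 3 astrocyte-like clusters of the finer clustering gave log2 ratios of 0.90, 0.60 and 0.60 for Timp4. In the Klk6 and Enpp6-led class, where Timp4 was lowest, it measured 3.23 and 16.8 CPM. There 0.98% and 4.13% of nuclei had a Timp4 UMI, or 0.14% and 2.23% when thinned. The part of free RNA in these shares was not tested. Mmp19, at 8.92 and 15.7 CPM from 35 and 66 UMIs, had a log2 ratio of 0.82 (0.21 to 1.45) that was 0.19 after thinning. Timp3 went the other way from fibroblast-like nuclei, at 369 CPM (349.8 to 388) and 287 CPM (271 to 304) (-0.36, -0.47 to -0.25), with -0.29, -0.57 and -0.43 in the same 3 clusters, all short of the fold. Timp1, of which astrocyte-like nuclei held 47.7% and 63.1% of UMIs, measured 106 and 126 CPM (0.25, 0.06 to 0.44). Adamts9 measured 185 and 156 CPM (-0.24), and Mmp14 87.9 and 81.5 CPM (-0.11, -0.33 to 0.11). Astrocyte markers summed to 18016 and 16280 CPM in this class, with 4 of 10 higher. Those of oligodendrocytes summed to 3190 and 2336 CPM, of their precursors to 1609 and 1195 CPM and of fibroblasts to 513 and 390 CPM, each with 1 of 10 higher, and their part in the TIMP values was not tested.

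Timp2, the TIMP that also helps MMP14 to activate pro-MMP2, was highest in Gpnmb-led myeloid nuclei, at 547 CPM (517.6 to 578) and 784 CPM (744 to 826), a log2 ratio of 0.52 (0.41 to 0.63) that did not pass the fold. It measured 346 and 413 CPM in microglia-like nuclei (0.25, 0.09 to 0.42), 185 and 215 CPM in neuron-like nuclei (0.22, 0.18 to 0.26) and 409 and 308 CPM in the Neurofilament-led class (-0.41, -0.67 to -0.16). In the Neurofilament-led class 1 of 3 members was past the fold lower and 0 higher, against 11.8% and 8.46% of genes, and in macrophage-like nuclei, where 10.7% of genes were higher and 9.14% lower, no member reached the minimum. Timp3 was higher in endothelial-like nuclei as well, at 417 and 521 CPM (0.32, 0.09 to 0.55), and in Schwann-like nuclei, at 657 and 832 CPM (0.34, 0.07 to 0.61).

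**Figure D5:**
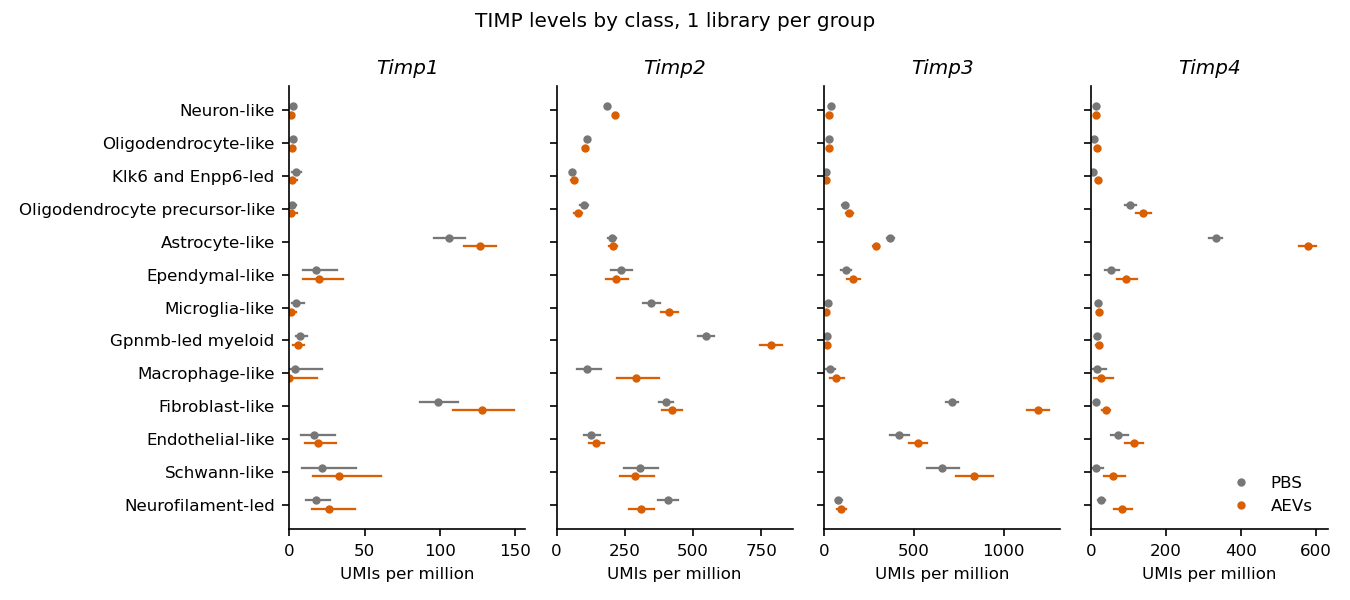
CPM of the 4 TIMP genes (panels, each with its own x axis from 0) in 13 classes, PBS in grey and AEVs in orange, with 95% intervals for counting error. Timp1 stands out in astrocyte-like and fibroblast-like nuclei, Timp2 is highest in Gpnmb-led myeloid nuclei, Timp3 is higher in the AEVs library in fibroblast-like nuclei and lower in astrocyte-like nuclei, and Timp4 is higher in astrocyte-like nuclei at 579 against 332.

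Of the 34 members, 13 overlap another measured gene in the annotation, 12 of them on the opposite strand. Whether strand was used in counting is not given in the sources used here, and without it reads of such a pair cannot be told apart. Timp1, Timp3 and Timp4 lie inside the synapsin genes Syn1, Syn3 and Syn2 on the opposite strand. In astrocyte-like nuclei Syn2 measured 178 and 162 CPM (-0.13, -0.29 to 0.02) where Timp4 was higher, and in fibroblast-like nuclei Syn3 measured 35.7 and 43.9 CPM (0.30, -0.22 to 0.81) beside the 711 and 1188 CPM of Timp3. Adamts9 overlaps the antisense RNA gene 9530026P05Rik, which in fibroblast-like nuclei measured 449 and 792 CPM (0.82, 0.69 to 0.94) where Adamts9 was lower, and in endothelial-like nuclei 507.5 and 537 CPM (0.08, -0.13 to 0.30). In astrocyte-like nuclei the antisense gene stood at 105 and 257 CPM (1.29, 1.13 to 1.46). Adamts9 also overlaps A730049H05Rik and Gm15737 on the opposite strand. A730049H05Rik was lower in fibroblast-like nuclei, at 16.4 and 4.88 CPM (-1.75, -3.28 to -0.50) from 40 and 6 UMIs. It was higher in astrocyte-like nuclei, at 13.8 and 32.6 CPM (1.25, 0.78 to 1.73). Gm15737 had 4 and 0 UMIs in fibroblast-like nuclei. The part of shared reads in the Adamts9 values was not tested. Neither Mmp3 nor Mmp13 overlaps another gene.

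Lists of genes around the family, chosen with earlier results of these data known, were set beside it, over all nuclei and in fibroblast-like nuclei. The shares of all genes to read the counts against are 3.94% lower and 8.88% higher over all nuclei, and 6.92% lower and 7.7% higher in fibroblast-like nuclei. Of 15 collagens and basement membrane proteins, the substrates of MMPs, 5 were past the fold lower and none higher over all nuclei (median log2 ratio -0.50), and 8 lower and 1 higher in fibroblast-like nuclei (-0.65). Col1a1, the main chain of scar collagen, measured 2461 and 664 CPM in fibroblast-like nuclei (-1.89) and Col3a1, of the fine fibres, 1597 and 887 CPM (-0.85). At the other end, Lama1, a basement membrane laminin, measured 178 and 274 CPM there (0.63) and Lamb1 41.8 and 35.0 CPM (-0.26). Col1a1 and Col3a1 are also among the markers that define this class.

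Of 12 inducers of MMP genes with enough UMIs, 3 were lower and none higher over all nuclei (median -0.31), against 3.94% and 8.88% of all genes. In fibroblast-like nuclei 6 of 9 were lower and 1 higher (median -0.71), against 6.92% and 7.7%. Fos, a subunit of AP-1 and an early response gene, measured 241 CPM (222 to 261.5) and 53.7 CPM (41.5 to 68.3) in fibroblast-like nuclei (-2.17, -2.56 to -1.80), and Fosl2, another AP-1 subunit, 56.2 and 33.4 CPM (-0.75). Spp1, the matrix cytokine osteopontin, was higher there at 278.5 and 487 CPM (0.81), and Fosl1 had 4 and 6 UMIs. Jun, the partner of Fos, chosen after its value was seen, measured 140.3 and 60.2 CPM (-1.22).

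Of 20 regulators of MMP activity 2 were higher and none lower over all nuclei (median 0.15), a share near that of all genes, of which 8.88% were higher at a median of 0.09. In fibroblast-like nuclei 4 of 15 were higher and 1 lower (median 0.18), against 7.7% and 6.92% of all genes. Plg, the plasminogen whose active form cleaves pro-MMPs, had 39 and 96 UMIs over all nuclei (1.40, 0.85 to 1.98). Lowest were the testicans Spock3 (-0.26) and Spock1 (-0.10) over all nuclei. Among 16 ADAM proteases and ADAMTS-like proteins, 2 were lower and none higher over all nuclei (median -0.19), against 3.94% and 8.88% of all genes. The lower ones were Adam8, a protease of leukocytes, at -0.81 and Adamtsl4, a fibrillin-binding relative, at -0.66. Adam28 (0.54) and Papln (0.39) were highest. Of 9 lecticans and other substrates of ADAMTS proteases, 1 was lower and 1 higher (median -0.18), against the same shares. Acan, the aggrecan of perineuronal nets, stood at 9.29 and 5.24 CPM over all nuclei (-0.83, -1.01 to -0.64) and Ncan, neurocan of glial scar, at 10.8 and 8.49 CPM (-0.34). Vwf, the ADAMTS13 substrate of endothelium, stood at 7.18 and 15.1 CPM (1.07, 0.92 to 1.23) and Comp at 0.602 and 0.866 CPM (0.53, -0.06 to 1.12).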

How the data were processed

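Single-nucleus RNA counts of 2 libraries, PBS and AEVs, 1 per group with 3 mice pooled in each, were analysed from the deposited matrices, which hold raw UMI counts per gene and nucleus. Seurat and mm10 are named per the submitters' processing notes; the aligner, the gene annotation and any strand setting were not given in the sources used here. Nuclei with at least 300 genes, at least 500 UMIs and under 5% mitochondrial UMIs were kept. Scrublet within scanpy 1.11.5 marked 771 PBS (5.21%) and 1400 AEVs (8.26%) doublets, which were removed. Of 2000 variable genes, members and the listed pathway genes were left out, and 30 components, 20 neighbours and Leiden resolution 1 (leidenalg 0.10.2) were used. A cluster was named from fixed markers when at least 3 were 2-fold over the median cluster and its leading genes did not go against the name. The Klk6 and Enpp6-led and Neurofilament-led classes were set apart after their genes were seen.

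Counts were summed per class and library. Levels carry exact Poisson and ratios exact conditional binomial 95% intervals, which cover counting error only; there was no test, since each group has 1 library. A member was compared where its UMIs of both libraries added up to 100 or more, and named in a class where its level was at least 0.25 of its highest class. Pathway lists were named by their 2 highest and 2 lowest ratios over all nuclei. A gene that this rule names is not reported here. For shares of nuclei with a UMI, nuclei were also thinned to 1000 UMIs, leaving out shallower ones (237 PBS and 140 AEVs fibroblast-like nuclei). The ratio script was tested on simulated data. The members and lists were chosen with earlier results of these data known. Promoters came from RefSeq tables. Python 3.11.15, scipy 1.17.1, numpy 2.4.6, pandas 2.3.3, scikit-learn 1.9.0 and matplotlib 3.10.9 were used.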

Additional observations from a re-analysis of the deposited data

Results flagged for a closer look

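Among members that met the naming condition in both classes, 4 differed between classes in the direction of the log2 ratio, with counting intervals on either side of 0; with 1 library per group the difference between classes was not tested. Timp3 stood at 0.74 (0.64 to 0.84) in fibroblast-like nuclei and at -0.36 (-0.47 to -0.25) in astrocyte-like nuclei. Timp2 stood at 0.52 (0.41 to 0.63) in Gpnmb-led myeloid nuclei and at -0.41 (-0.67 to -0.16) in the Neurofilament-led class. Adamts6 stood at 0.51 (0.33 to 0.69) in oligodendrocyte precursor-like nuclei and at -0.47 (-0.74 to -0.21) in fibroblast-like nuclei. Adamts16 stood at 0.18 (0.09 to 0.27) in neuron-like nuclei and at -0.84 (-1.43 to -0.28) in microglia-like nuclei.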

How the results depend on the processing

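None of 27 values past the fold changed its sign where an alternative gave a value. These were the 10 over all nuclei and the 17 within classes that met the naming condition. Other values within classes were not followed in this way. The count of members past the fold higher over all nuclei was 1 and became 2 as a mean over nuclei and 2 when thinned. The count lower was 9 and became 5 with the stricter nucleus filter and 3 with the same cluster mix; under the other alternatives it lay between 7 and 12, and the median log2 ratio between -0.35 and -0.16. Within classes, 8 were higher and 23 lower. Thinning gave 5 and 11, with fewer genes past the minimum, and a minimum of 20 UMIs gave 29 and 50, with more. Shares of all genes by class ran from 5.55% to 12.4% higher and from 3.53% to 11.8% lower in the main setting. They were not computed under the alternatives, so the counts given for those have no background. The cause of the first 4 changes was not tested. Of the 10 values past the fold over all nuclei and the 17 within classes that met the naming condition, 27 in all, 27 kept it with median-of-ratios scaling, 25 as a mean over nuclei, with doublet calls kept and with no mitochondrial limit, 21 of 25 when thinned and 21 of 26 with the stricter filter. Newly past it were 4, 10, 2, 0, 16 and 2 values in that order. With the top nucleus of each library left out, an alternative chosen after seeing the data, 25 of 26 kept it. No paired analysis was possible because each group has 1 library. Depth limits the 11 members under 100 UMIs, and Mmp3 and Mmp13 in AEVs fibroblast-like nuclei rest on 2 UMIs each.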

Other observations

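Collagen and basement membrane genes were also counted in Gpnmb-led myeloid nuclei, where 5 of the 15 listed genes reached the minimum and all 5 were past the fold lower in the AEVs library, at a median log2 ratio of -3.06. Over all genes in that class 6.39% were past the fold lower. Fibroblast markers in these nuclei summed to 319 and 103 CPM, and the part of fibroblast RNA in this was not tested. Col1a1, Col1a2 and Col3a1 are in both lists, so the marker sum is not a separate measure.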
